A study of Mus musculus with 6 samples.

Results

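The 9 genes described here are Reln, which encodes the secreted signal reelin, its receptor genes Vldlr and Lrp8, the adaptor gene Dab1, and 5 genes used as markers of Cajal-Retzius cells, Trp73, Lhx1, Lhx5, Nhlh2 and Ndnf. They were taken by symbol, with no threshold on their values, from a table of 24391 gene symbols, and 9 of 9 were present and passed the filter on low counts with 15925 genes in all. RNA came from hemibrains of newborn mice at postnatal day 0, in 2 groups of 3 libraries. The null group was Celf2 -/-, replicates 2, 4 and 10, and the control group was Celf2 +/-, replicates 6, 7 and 11. Both groups thus lacked at least 1 Celf2 allele and no wild-type brain entered the comparison. CELF2 is an RNA-binding protein that acts on splicing and on 3′ untranslated regions (UTRs). The labels name no strain, sex, litter or way in which the allele was made, and they do not say which hemisphere was taken, so p-values measure the spread between these libraries.

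Reelin is a large extracellular glycoprotein. In the embryonic and newborn cortex it is secreted mainly by Cajal-Retzius cells, early-born neurons that lie in the marginal zone just beneath the meninges. It binds the lipoprotein receptors VLDLR and ApoER2, the product of Lrp8, on migrating neurons, where Src-family kinases then phosphorylate DAB1, and the order of cortical layers depends on this pathway. After signalling, phosphorylated DAB1 is ubiquitinated and degraded. Reln is also transcribed outside the cortex, in cerebellar granule cells, in mitral cells of the olfactory bulb and in some interneurons. Lhx1 and Lhx5 encode LIM-homeodomain factors that Purkinje cells and several brainstem and diencephalic neurons use as well, so none of these RNAs belongs to Cajal-Retzius cells alone in a whole hemibrain.

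Because CELF proteins bind GU-rich RNA, 3′ UTR sequences show which of the 9 transcripts carry such letters. Annotated 3′ UTRs (GENCODE, mouse build GRCm38, the longest per gene, sense strand) were searched for an 11-base U-rich element (TGTT 2 times, then TGT), for an 11-base GT repeat (GT 5 times, then G) and for the 7-base core TGTTTGT, which the U-rich element contains. All 9 genes had an annotated 3′ UTR. The long element was found in 0 of the 9, and in 4.16% of the 14416 tested genes with a 3′ UTR. The GT repeat was found in 1 of 9, Lrp8, and in 7.76% of all. The core was found in 3 of 9, Vldlr, Dab1 and Nhlh2, and in 29% of all. The first match in each gene is printed below, 5′ to 3′ in DNA letters, with the matched motif in capitals.
Vldlr: tcgttggttttTGTTTGTttacttggtttt
Lrp8: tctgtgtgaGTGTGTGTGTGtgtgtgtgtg
Dab1: aagctgctaccTGTTTGTacaggattcctc
Nhlh2: aactctttatgTGTTTGTtgagattatctt
These matches begin at base 3232 of 5091 in the Vldlr 3′ UTR, base 108 of 1588 in Lrp8, base 2218 of 3347 in Dab1 and base 976 of 2431 in Nhlh2. In Lrp8 the repeat runs on, with 25 overlapping matches. The 3′ UTR of Reln, 1019 bases, held 0 matches to each of the 3 motifs. A match describes letters and not binding, and with 9 genes the shares of 11.1% and 33.3% are counts of 1 and 3 genes.

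Library totals ranged from 28831997 to 36531980 counts, and the 9 genes together held between 0.0814% and 0.11% of them. Levels are given in CPM, counts scaled to library sizes that were adjusted by TMM factors. Celf2 itself averaged 408 ± 48.5 CPM in heterozygous and 390 ± 58.4 CPM in null libraries (SD, n = 3 each), so gene totals do not check the genotype labels and each direction below rests on the labels. Some libraries stood apart. In null replicate 2 the ribosomal RNA precursor Rn45s took 11.8% of counts, against at most 1.27% elsewhere, and the midbrain gene En1 was at 0.63 CPM, whereas the other libraries held 6.81 to 11 CPM. Heterozygous replicate 7 held 48.5 CPM of Hoxa5, a gene of hindbrain and spinal cord, where no other library exceeded 0.918 CPM. The Y-linked gene Ddx3y had 1663 to 2808 counts in null replicate 2 and heterozygous replicates 6 and 11 and 0 counts in the other 3, so the groups were not balanced for sex. The activity-regulated gene Fos was at 78.3 and 235 CPM in null replicates 2 and 4 and between 4.5 and 8.53 CPM elsewhere. Neurod6, a gene of cortical excitatory neurons, was present in all 6 libraries, at 170.2 to 271 CPM.

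Compared per length, as RPKM (CPM per kilobase of the deposited gene length), the receptor gene Lrp8 had the highest mean level over the 6 libraries, 36.4 RPKM, followed by Reln at 30.9, Dab1 at 28, Vldlr at 12.2, Lhx5 at 6.63, Nhlh2 at 5.87, Lhx1 at 5.77, Ndnf at 3.11 and Trp73 at 2.08 RPKM. The ranges over libraries overlapped for Lrp8 and Reln, and for Reln and Dab1. Dab1 (lowest 23.4 RPKM) and Vldlr (highest 14.7 RPKM) did not overlap, nor did Vldlr (lowest 10.3 RPKM) and Lhx5 (highest 8.62 RPKM). Each later pair of neighbours overlapped. The 4 signalling genes thus lay above the 5 Cajal-Retzius markers in every library.

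**Figure D1:**
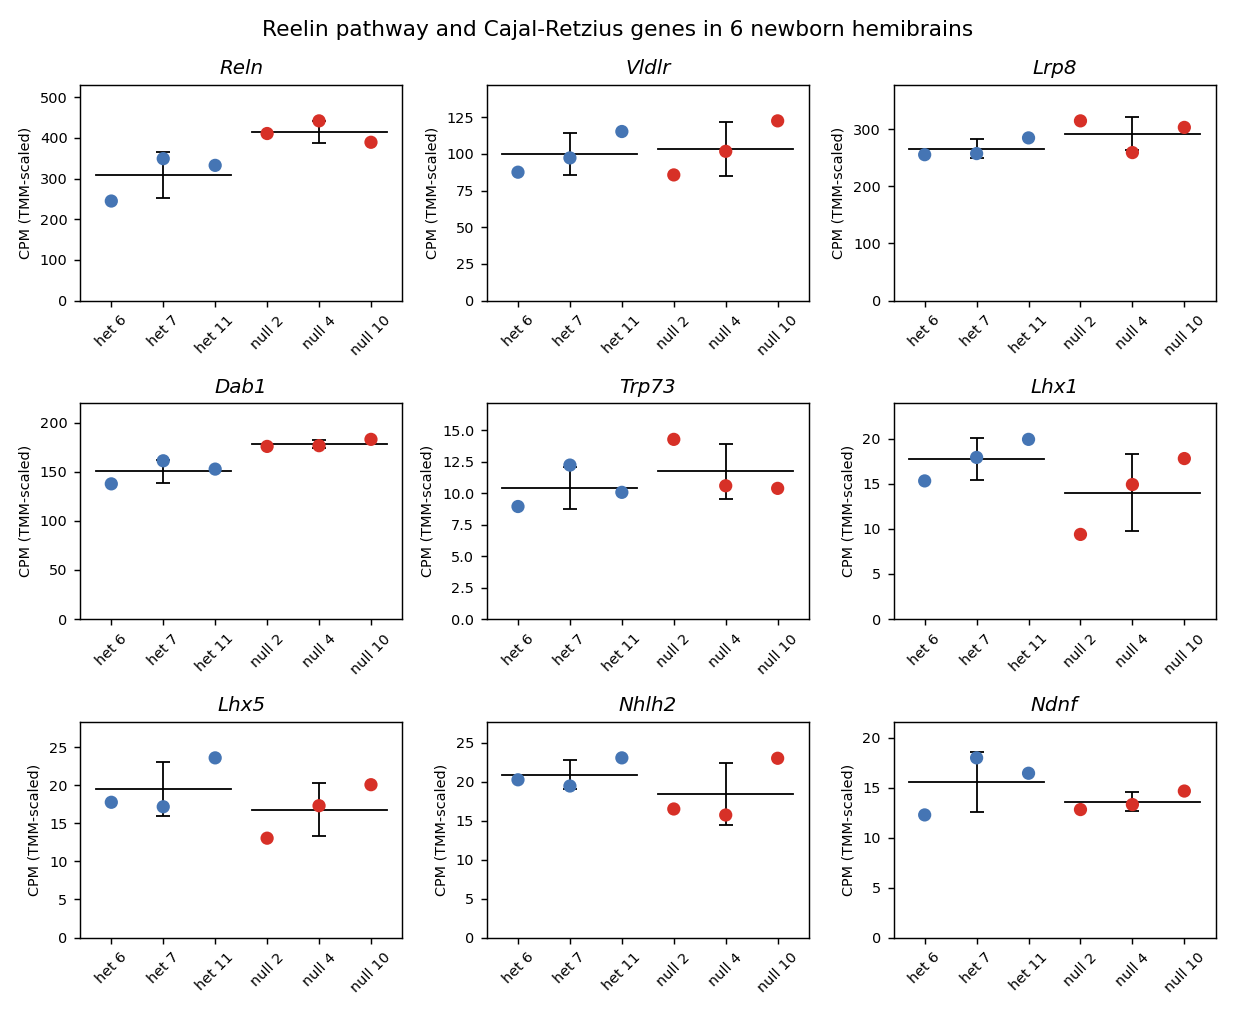
CPM (TMM-scaled, axis from 0) of each gene in the 3 heterozygous (het, blue) and 3 null (red) libraries, with the group mean as a line and the SD as a bar. The null points lie above all heterozygous points for Reln and Dab1, and the groups overlap in the other 7 panels.

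Reln and Dab1 had higher values in every null library than in any heterozygous one, and neither passed the test over all genes. The receptors and the 5 Cajal-Retzius markers overlapped between the genotypes. Of the 9 genes, 0 passed edgeR's quasi-likelihood test at an adjusted p of 0.05, against 0.00628% of all genes tested, which is 1 gene. DESeq2 also called 0 of 9, against 0.402% of all. At an unadjusted edgeR p of 0.05 the count was 2 of 9, Reln and Dab1, both higher, against 7.06% of all genes (4.13% higher and 2.93% lower). The groups did not overlap for the same 2 genes, or 22.2%, against 12.7% of all genes tested and 6.21% for null above heterozygous. Of the 9 fold changes 5 were positive, against 49.7% of all genes tested, and their median on the log2 scale was 0.05, against -0.001 for all.

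Reln was measured at 411, 442 and 389 CPM in null replicates 2, 4 and 10, and at 245, 349 and 332 CPM in heterozygous replicates 6, 7 and 11. The lowest null library was 389 CPM and the highest heterozygous library 349 CPM, and heterozygous replicate 6 lay well below the other two of its group. Group means were 414 ± 26.5 and 309 ± 56 CPM (SD, n = 3 each), a log2 fold change of 0.42 (SE 0.12, 95% interval 0.15 to 0.69). Null libraries thus held 134% of the Reln RNA of heterozygous ones (95% bounds 111% and 162%). The p was 0.00568 before adjustment and the edgeR adjusted p 0.522. DESeq2 gave an adjusted p of 0.131. An exact two-sided permutation test gave p = 0.1, the smallest that 3 against 3 libraries allow. A fold change at least as large was found for 2.53% of all genes tested. Without heterozygous replicate 6 the log2 fold change was 0.28 (unadjusted p = 0.00608, edgeR adjusted p = 0.898), a drop of more than 1.5 times from a value that had not passed. In bulk tissue, more cells that transcribe Reln and more Reln RNA per cell cannot be told apart.

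Dab1, the intracellular adaptor that carries the reelin signal, was at 176, 177 and 183 CPM in null replicates 2, 4 and 10. Heterozygous replicates 6, 7 and 11 held 138, 161 and 153 CPM. The null libraries lay within a few percent of each other, and heterozygous replicate 6 was again the lowest. Means were 178 ± 3.95 and 151 ± 11.9 CPM, a log2 fold change of 0.25 (SE 0.07, 95% interval 0.09 to 0.41, unadjusted p = 0.0061, edgeR adjusted p = 0.522). A fold change at least as large as that of Dab1 was found for 8.13% of all genes tested. With library size alone in place of TMM factors, null replicate 2 was at 155 CPM of Dab1, below the 166 and 160 CPM of heterozygous replicates 7 and 11, and the groups overlapped (log2 fold change 0.16, unadjusted p = 0.136). When Rn45s counts were taken out of the library sizes the groups were again apart, with 176 CPM in null replicate 2. Reln stayed above in null libraries by both scalings, although with library size alone null replicate 2 (362 CPM) was close to heterozygous replicate 7 (359 CPM).

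The receptor genes overlapped between groups. Lrp8 was at 315, 259 and 304 CPM in null replicates 2, 4 and 10 and at 256, 258 and 285 CPM in heterozygous replicates 6, 7 and 11. Null replicates 2 and 10 were above all heterozygous libraries, and null replicate 4 lay among them. The log2 fold change was 0.14 (95% interval -0.05 to 0.32, edgeR adjusted p = 0.816), 0.08 without null replicate 2 and 0.22 without null replicate 4. Vldlr was at 85.6, 102 and 123 CPM in null libraries and 87.5, 97.3 and 115 CPM in heterozygous ones, in the same order. Its lowest and its highest value were both in null libraries, and the log2 fold change was 0.05 (95% interval -0.26 to 0.35, edgeR adjusted p = 0.974). These intervals allow a null level between 96.5% and 125% of the heterozygous level for Lrp8 and between 83.6% and 128% for Vldlr. The sign of the Vldlr value changed with the scaling and with the libraries kept. The Lrp8 value changed to -0.002 once mean Hox expression was entered in the fit, and its SE rose from 0.085 to 0.125. That mean was taken over Hoxa2, Hoxb2, Hoxa3, Hoxb3, Hoxa5 and Hoxc4. All of these but Hoxa5 were lower in every null library than in any heterozygous one. Hox level and genotype thus cannot be fully told apart in that fit.

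**Figure D2:**
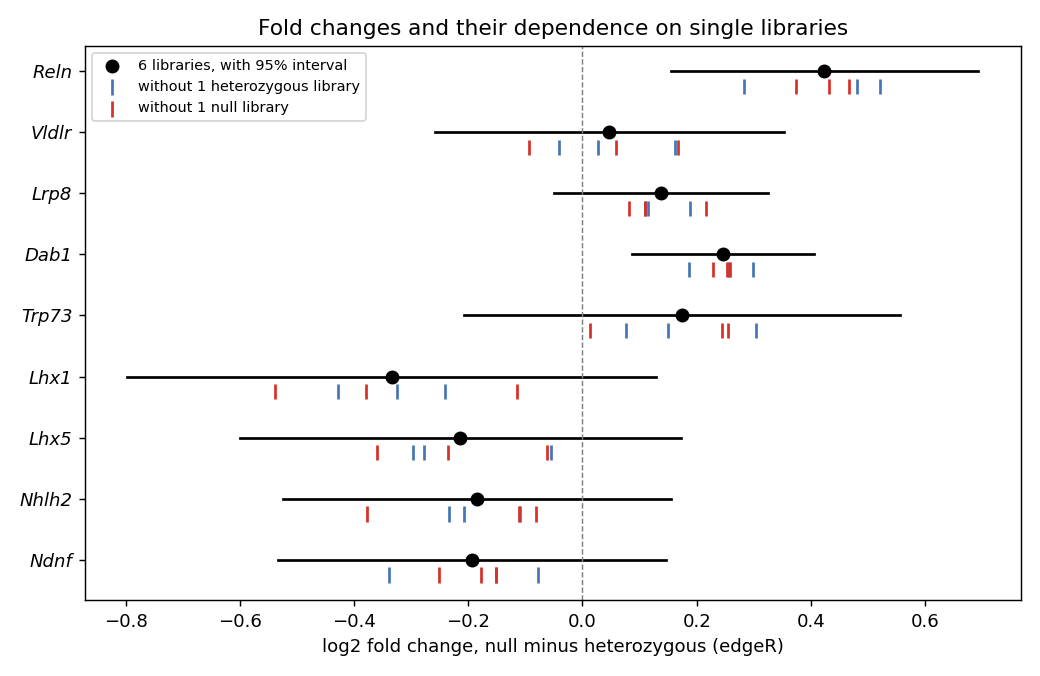
log2 fold change, null minus heterozygous, of each gene (black point) with its 95% interval (line), and below it the values when 1 library is left out (ticks, blue for heterozygous and red for null). The intervals of Reln and Dab1 lie above 0, the other 7 include 0, and the ticks of Vldlr fall on both sides.

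The groups overlapped for each of the 5 Cajal-Retzius markers. Trp73, which encodes the p53 relative p73 and is needed for these cells to survive, was at 14.3, 10.6 and 10.4 CPM in null replicates 2, 4 and 10. Heterozygous replicates 6, 7 and 11 held 8.93, 12.2 and 10.1 CPM of Trp73. Null replicate 2 was the highest library, and the other null libraries lay inside the heterozygous range. The log2 fold change was 0.17 (95% interval -0.21 to 0.56, edgeR adjusted p = 0.902), and 0.01 without null replicate 2. The other 4 markers had negative fold changes, and their intervals all included 0.

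Lhx1 was at 9.38, 14.9 and 17.8 CPM in null replicates 2, 4 and 10 and at 15.3, 17.9 and 19.9 CPM in heterozygous replicates 6, 7 and 11. Null replicate 2, with 238 counts, was far below the rest, and null replicate 10 lay inside the heterozygous range. On the log2 scale Lhx1 differed by -0.33 (SE 0.21, 95% bounds -0.80 and 0.13, edgeR adjusted p = 0.822), by -0.11 without null replicate 2 and by -0.54 without null replicate 10. Lhx1os, a non-coding gene that lies beside Lhx1 on the opposite strand and was chosen after its values were seen, was also lowest in that library, at 2.21 CPM against 5.87 and 6.15 CPM in the other null libraries and 6.92 to 9.16 CPM in heterozygous ones. Lhx5 was at 13, 17.3 and 20.1 CPM in null libraries and 17.8, 17.2 and 23.6 CPM in heterozygous ones. Its log2 fold change was -0.21 (95% interval -0.60 to 0.17, edgeR adjusted p = 0.878), and -0.06 without null replicate 2 or -0.05 without heterozygous replicate 11. Both LIM-homeodomain genes were thus lowest in null replicate 2 and highest in heterozygous replicate 11.

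Nhlh2, a basic helix-loop-helix factor of newborn neurons, was at 16.5, 15.7 and 23 CPM in null replicates 2, 4 and 10 and at 20.3, 19.5 and 23.1 CPM in heterozygous replicates 6, 7 and 11. Null replicate 10 was close to the highest heterozygous library, while the other null libraries lay below all of them. The log2 fold change was -0.18 (95% interval -0.52 to 0.16, edgeR adjusted p = 0.881). It was -0.38 without null replicate 10 and -0.08 without null replicate 4. Ndnf, which encodes a secreted protein of Cajal-Retzius cells and, later, of layer 1 interneurons, was at 12.8, 13.3 and 14.7 CPM in null libraries and at 12.3, 18 and 16.4 CPM in heterozygous ones. Heterozygous replicate 6 was the lowest of all and replicates 7 and 11 the highest. The log2 fold change was -0.19 (95% interval -0.53 to 0.15, edgeR adjusted p = 0.871), -0.34 without heterozygous replicate 6 and -0.08 without heterozygous replicate 7.

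Ratios of counts within a library do not depend on how libraries are scaled. Reln gave 6.22, 6.15 and 4.53 counts per count of the 5 markers summed in null replicates 2, 4 and 10, and 3.28, 4.12 and 3.57 in heterozygous replicates 6, 7 and 11, without overlap. Against single markers the ratio separated the groups for Lhx1 and Ndnf and overlapped for Trp73, Lhx5 and Nhlh2. Reln per Trp73 was 28.8, 41.8 and 37.5 in null libraries and 27.4, 28.5 and 33 in heterozygous ones. Reln per Dab1 was 2.33, 2.5 and 2.13 in null libraries and 1.78, 2.16 and 2.18 in heterozygous ones. The 2 genes with separated groups thus had overlapping ratios to each other. The ratios are descriptions, chosen after the values were seen, and were not tested.

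Among the 9 genes, profiles over the 6 libraries were compared by the root-mean-square difference of log2 CPM after each gene's mean was removed, where a small value means a like pattern. Of the 36 pairs the closest was Lrp8 with Dab1, at 0.125 log2 units, followed by Reln with Dab1 at 0.151, Vldlr with Lhx5 at 0.155 and Lhx1 with Lhx5 at 0.155. The pairs farthest apart were Trp73 with Lhx1, at 0.516, and Reln with Lhx1, at 0.507. Over all 13144 other tested genes with at least 50 counts on average and a full name, those with the profile most like Reln were Olfml2a (0.066), Nkain3 (0.072), Ago2 (0.072), Pcdhga9 (0.075) and E2f7 (0.076). Ago2, an Argonaute protein, was at 75.5, 85.8 and 73.4 CPM in null replicates 2, 4 and 10 and at 50.4, 61.4 and 60.7 CPM in heterozygous replicates 6, 7 and 11. Nkain3 was at 9.28 CPM in heterozygous replicate 6 and between 13.1 and 15.7 CPM elsewhere. Heterozygous replicate 6 was the lowest library for each of these 5 genes, as for Reln. This follows largely from choosing them by likeness to the Reln profile. Dab1 was closest to Fat1 (0.02) and Gpc4 (0.027), Lrp8 to Senp6 (0.015) and Asap2 (0.028), and Vldlr to Arid4a (0.026) and Inpp5d (0.027). Trp73 was closest to Gapdh (0.056) and Col22a1 (0.072). Gapdh was counted at only 6.97 to 10.3 CPM, and the reason for this low level was not tested. Lhx1 was closest to Shox2 (0.074) and Hhip (0.078), and Lhx5 to Pnpla7 (0.06) and Ppp4r4 (0.062). Nhlh2 was closest to Tprn (0.039) and Prorsd1 (0.039), and Ndnf to Cyth4 (0.057) and Ildr2 (0.064).

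**Figure D3:**
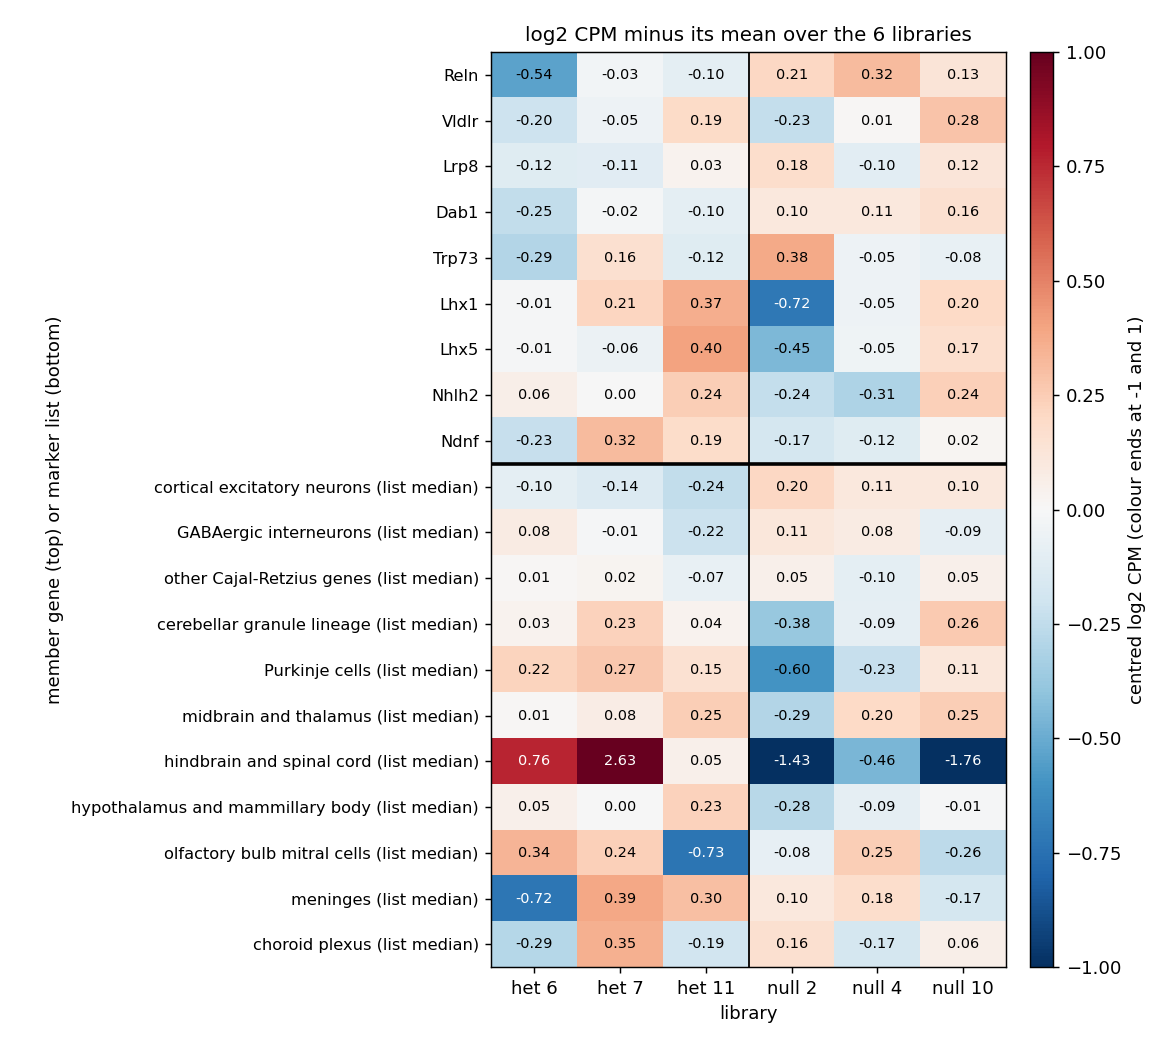
log2 CPM of each of the 9 genes, and the median over each marker list, minus its mean over the 6 libraries (numbers in the cells, columns are libraries). Reln is lowest in het 6, where the meningeal and choroid plexus lists are also lowest. Lhx1 and Lhx5 are lowest in null 2, as are the Purkinje, granule lineage, midbrain and thalamus, and hypothalamus lists.

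Marker lists of other tissues differed between single libraries. For the meninges, under which Cajal-Retzius cells lie, 8 genes summed to 220 CPM in heterozygous replicate 6, against 497 and 537 CPM in the other heterozygous libraries and 356 to 471 CPM in null ones. This is the library with the lowest Reln, Lrp8, Dab1, Trp73 and Ndnf. In log2 CPM minus the gene's mean, Vldlr was at -0.20 there, and Lhx1, Lhx5 and Nhlh2 were at -0.01, -0.01 and 0.06. The part of the meningeal difference in these values was not tested, and the Reln values without that library are given above. Calb2, the calretinin gene of Cajal-Retzius cells and interneurons, chosen after its values were seen, was at 99.2 CPM in heterozygous replicate 6 and between 62.1 and 66.8 CPM elsewhere. In null replicate 2, where Lhx1 and Lhx5 were lowest, the 7 Purkinje genes summed to 171 CPM, against 177 and 200 CPM in the other null and 208 to 217 CPM in the heterozygous libraries. By median log2 CPM, the granule lineage, midbrain and thalamus, and hypothalamus lists were also lowest in null replicate 2, but not by their sums. The Purkinje gene Car8 was at 13.4 CPM there and at 22.3 and 29.3 CPM in the other null libraries. Heterozygous libraries held 30.5 to 36.9 CPM of Car8, without overlap (log2 fold change -0.65, edgeR adjusted p = 0.639). The 11 hindbrain and spinal cord genes summed to 4.65, 15 and 4.69 CPM in null replicates 2, 4 and 10 and to 21, 167 and 13.5 CPM in heterozygous replicates 6, 7 and 11. The part of posterior tissue in the Lhx1 and Lhx5 values was not tested.

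Genes of cortical excitatory neurons were also compared with Reln. The 10 genes of that list summed to 1700, 1495 and 1481 CPM in null replicates 2, 4 and 10 and to 1273, 1217 and 1167 CPM in heterozygous replicates 6, 7 and 11, without overlap. Their median log2 fold change was 0.39, with 8 positive and 2 negative. Of the 10, 0 passed edgeR's test and 3 were called by DESeq2, against 0.402% of all genes tested. Neurod6, a transcription factor of these neurons, had a log2 fold change of 0.53 (edgeR adjusted p = 0.062, DESeq2 adjusted p = 1.96e-06). Slc17a7, the vesicular glutamate transporter VGLUT1, was at 64.2, 61.6 and 50.4 CPM in null and 67.5, 62.9 and 58 CPM in heterozygous libraries, with overlap (-0.10, edgeR adjusted p = 0.922). Reln per Neurod6 count was 1.69, 1.7 and 1.44 in null libraries and 1.38, 2.05 and 1.77 in heterozygous ones, with overlap. The share of cortex in each hemibrain and the genotype cannot be told apart here. Lists of other possible sources of Reln overlapped between groups in their summed levels: 11 interneuron genes gave 763 to 866 CPM in null and 761 to 836 CPM in heterozygous libraries, 5 mitral cell genes 103 to 130 and 91.4 to 133 CPM, and 10 granule lineage genes 392 to 513 and 427 to 455 CPM. The median log2 fold changes of the interneuron, mitral and granule lists were 0.15, -0.10 and -0.27. In the granule list 4 fold changes were positive and 5 negative. Its sum rests largely on Zic1 and Zic2, at 252 and 103 of 473 CPM in null replicate 2. Single genes of these lists differed from the sums. Eomes, a transcription factor of mitral cells and of cortical intermediate progenitors, was at 29.3, 24.8 and 24.1 CPM in null and 22, 17.1 and 12.6 CPM in heterozygous libraries, without overlap (log2 fold change 0.59, edgeR adjusted p = 0.531). Dlx1, a homeobox gene of interneurons, was at 84.1, 72.4 and 72.5 CPM in null and 72.4, 56.7 and 56.3 CPM in heterozygous libraries, separated by a narrow gap (0.30, edgeR adjusted p = 0.639). Of the granule lineage, Zic1 had a log2 fold change of 0.31 (edgeR adjusted p = 0.662) and Cbln1 of -0.27 (edgeR adjusted p = 0.711), both with overlap. Atoh1, which defines granule cell precursors, averaged 18.3 counts, under the minimum of 50 used for named genes. It ranged from 0.0394 CPM in null replicate 2 to 1.14 CPM in heterozygous replicate 7, with overlap between the groups.

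A wider list held 14 other Cajal-Retzius genes. Of the 12 that were tested, 7 had positive and 5 negative fold changes, with a median of 0.03, and 0 passed edgeR's or DESeq2's test. The groups did not overlap for 1 higher and 1 lower gene, or 16.7%, near the 12.7% of all genes tested. Spock1, which encodes the proteoglycan testican-1, was at 236, 272 and 265 CPM in null replicates 2, 4 and 10 and at 197, 224 and 206 CPM in heterozygous replicates 6, 7 and 11. All null libraries were above all heterozygous ones (log2 fold change 0.30, SE 0.08, edgeR adjusted p = 0.482). Ebf1, a helix-loop-helix factor, was at 44.5, 35.1 and 32.8 CPM in null and 44.6, 56.9 and 38.7 CPM in heterozygous libraries, with overlap (-0.32, edgeR adjusted p = 0.733). Ebf2 and Ebf3, chosen after their values were seen, were both lowest in null replicate 2, at 4.89 and 44.8 CPM. Ebf2 was at 9.99 and 11.1 CPM in the other null libraries and 11.4 to 12.4 CPM in heterozygous ones. It was the lower gene without overlap (log2 fold change -0.47, edgeR adjusted p = 0.774). Ebf3 was at 73.7 and 89.1 CPM in the other null libraries and 77.3 to 110 CPM in heterozygous ones, with overlap. Wnt3a and Dbx1, which mark embryonic sources of these cells, were below the count filter, at no more than 0.306 and 0.385 CPM.

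Other genes of the pathway, 61 in 4 lists by role, included 0 that passed edgeR's test. DESeq2 called 1, Nrp1 (adjusted p = 0.0252). At an unadjusted p of 0.05 edgeR counted 11, or 18%, against 7.06% of all genes tested, 10 of them higher and 1 lower. The groups did not overlap for 13 higher and 4 lower genes, 21.3% and 6.56%, against 6.21% and 6.47% of all genes. Across the 61 genes 34 fold changes were positive and 27 negative, with a median of 0.03. These lists were chosen with earlier results known and were not tested as sets.

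**Figure D4:**
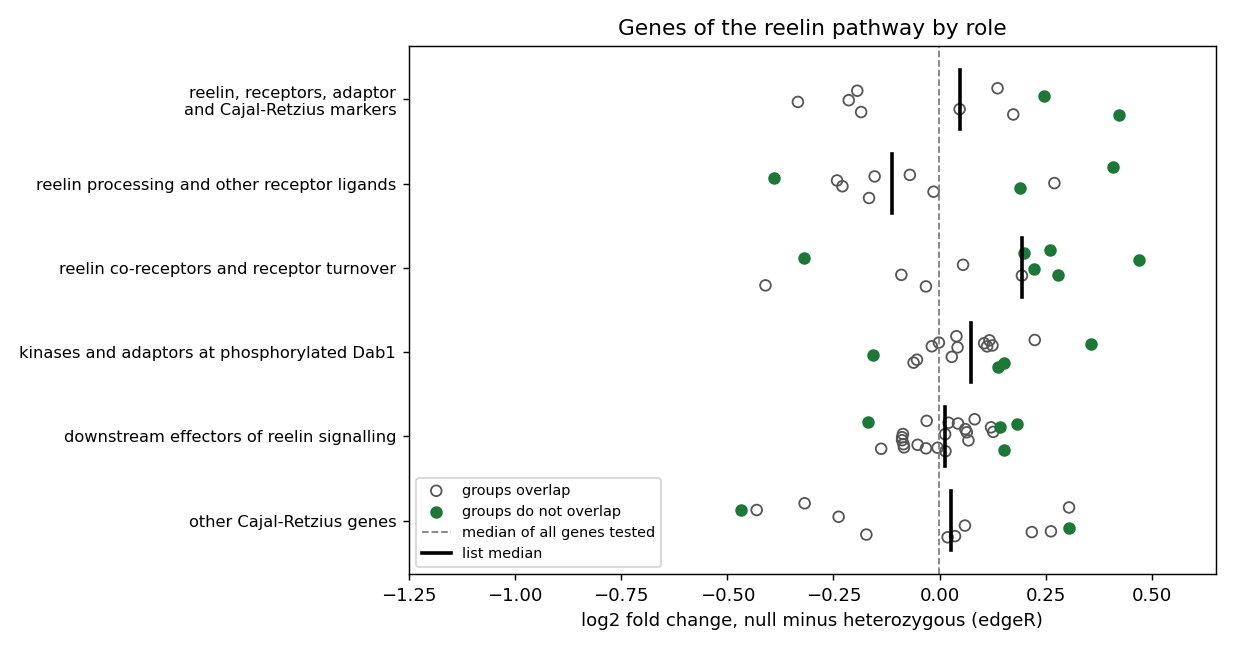
log2 fold change, null minus heterozygous, of each tested gene (circles, spread vertically only for legibility) in 6 lists by role, filled where the groups do not overlap, with the list median (bar) and the median of all genes tested (dashed line). Fold changes of the co-receptor list have the highest median, 0.19, and those of the downstream effectors lie between -0.17 and 0.18.

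Among co-receptors and genes of receptor turnover, 7 of 11 fold changes were positive, with a median of 0.19, and the groups did not overlap for 5 higher genes and 1 lower, against 6.21% and 6.47% of all genes tested. Nrp1, neuropilin-1, a semaphorin receptor that can associate with VLDLR in reelin signalling, was at 138, 135 and 131 CPM in null replicates 2, 4 and 10. Heterozygous replicates 6, 7 and 11 held 90, 86.7 and 115 CPM. Every null library lay above every heterozygous one, with means of 135 ± 3.8 and 97.2 ± 15.3 CPM (log2 fold change 0.47, SE 0.10, edgeR adjusted p = 0.368). Mylip, the ubiquitin ligase that targets these lipoprotein receptors for degradation, was at 8.86, 9.45 and 7.51 CPM in null and 10.4, 12.2 and 9.74 CPM in heterozygous libraries. Its null values were all below the heterozygous ones (-0.32, SE 0.15, edgeR adjusted p = 0.73).

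For reelin proteases and other ligands of the receptors, 3 of 10 fold changes were positive and 7 negative, with a median of -0.11. Apoe, apolipoprotein E, a ligand of both receptors made by astrocytes, was at 429, 573 and 551 CPM in null replicates 2, 4 and 10 and at 695, 700 and 640 CPM in heterozygous replicates 6, 7 and 11. All null libraries were below all heterozygous ones (log2 fold change -0.39, SE 0.10, edgeR adjusted p = 0.488). Thbs1, thrombospondin-1, which also binds ApoER2, was at 16.5, 22.2 and 16.8 CPM in null and 12.3, 13.4 and 16.1 CPM in heterozygous libraries. The groups were separated by a narrow gap (0.41, SE 0.15, edgeR adjusted p = 0.639).

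The kinases and adaptors at phosphorylated DAB1 had a median of 0.07, with 11 of 16 fold changes positive. Pik3r1, the regulatory subunit of phosphoinositide 3-kinase that DAB1 recruits, was at 237, 288 and 233 CPM in null replicates 2, 4 and 10 and at 190, 209 and 192 CPM in heterozygous replicates 6, 7 and 11. Its groups did not overlap (log2 fold change 0.36, SE 0.09, edgeR adjusted p = 0.48). Rnf7, a RING protein of the complex that marks DAB1 for degradation, was at 51.9, 56.6 and 58.2 CPM in null and 61.3, 65 and 59.8 CPM in heterozygous libraries, again without overlap (-0.16, SE 0.09, edgeR adjusted p = 0.778). The downstream effectors, among them the cadherin, small GTPase and microtubule genes, had the narrowest range of the 4 pathway lists, from -0.17 to 0.18 over 24 genes, and a median of 0.01. Cdh2, N-cadherin, averaged 282 ± 18.7 CPM in null and 248 ± 14.2 CPM in heterozygous libraries (0.18, SE 0.07, edgeR adjusted p = 0.656). Rap1a, a GTPase that acts upstream of N-cadherin in migrating neurons, averaged 29.4 ± 1.07 and 33.1 ± 0.199 CPM (-0.17, SE 0.09, edgeR adjusted p = 0.786).

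Among the 12 pathway genes with one of the long motifs in their 3′ UTR, 3 had the U-rich element (Adamts5, Cul5 and Ube2f), 5% of the 60 with a 3′ UTR and near the 4.16% of all genes. The GT repeat was found in 9, or 15%, against 7.76% of all, Pik3r1 (6 overlapping matches) among them. The core was found in 24 of the 60, or 40%, against 29% of all. The median 3′ UTR of the 60 was longer, 1768 bases against 1176 bases for all, and a longer sequence holds more matches. The 9 genes of the main group had a median 3′ UTR of 2431 bases.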

How the data were processed

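What the authors deposited is 1 table of whole-number counts per gene symbol, with gene lengths. TRIzol extraction and a stranded kit for total RNA are named per the labels' protocols. The series' design text names poly(A) RNA instead, a conflict left unresolved here. Software listed in the submitters' processing notes is MACS2, bedtools, Picard, STAR, cutadapt and CASAVA, and the genome builds listed are hg19 and mm9, without roles or versions. How reads were counted, with which strand setting and annotation, is not given in the sources used here.

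Genes were kept by filterByExpr and tested with the quasi-likelihood test of edgeR 4.0.16 (R 4.3.3), using TMM scaling and robust estimation, and p-values were adjusted by Benjamini-Hochberg over all 15925 genes, with a threshold of 0.05. SE is the fold change over the square root of F. Intervals are 95%. The fit was also run on simulated counts with fold changes put in by design. That simulation held no tissue differences between libraries, so it does not check the fit against them. Profiles use log2 CPM with a prior count of 2. DESeq2 1.42.0, limma-voom (limma 3.58.1), other scalings, filters and covariates, and leaving out each library were alternatives. Every pair of libraries differed by more than sampling noise (chi-square per gene 12.8 or higher).

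The 9 genes, 15 other lists and all tests were chosen with earlier results of these data known. The text names the 9 genes, the gene with the smallest p in each direction of a list restricted to genes averaging 50 counts or more, and the nearest profiles (5 for Reln, 2 for the others). Some genes that this rule names are left out. Rora and Slc17a7 stand in 2 lists each. Selenop was matched by its older symbol Sepp1. Reads of antisense or overlapping genes cannot be told apart. Because the reference build differs from the notes, no coordinates are given. Some results are not reported here.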

Additional observations from a re-analysis of the deposited data

How the results depend on the processing

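Under each of 19 alternatives, 0 of the 9 genes passed, and Reln, Dab1 and Trp73 kept a positive and Lhx1, Lhx5, Nhlh2 and Ndnf a negative fold change. Reln ranged from 0.28 to 0.59 and Dab1 from 0.16 to 0.33, with adjusted p-values from 0.131 to 1 and from 0.207 to 1. The ranges were 0.01 to 0.33 for Trp73, -0.54 to -0.11 for Lhx1, -0.39 to -0.05 for Lhx5, -0.38 to -0.08 for Nhlh2 and -0.34 to -0.03 for Ndnf. The Hox covariate gave the highest values of Reln, Dab1 and Trp73. Under the other settings these 3 genes reached at most 0.53, 0.31 and 0.30. The Hox covariate also gave -0.39 for Lhx5, -0.37 for Nhlh2 and -0.026 for Ndnf. The Y-linked covariate (presence of Ddx3y counts) gave -0.51 for Lhx1 (unadjusted p = 0.0347). Vldlr was negative with library size alone (-0.029), the mean Hox level as a covariate (-0.026) and the Y-linked covariate (-0.018), and lay between -0.093 and 0.17 when 1 library was left out. Lrp8 was at -0.0017 with the Hox covariate, which cannot be fully told apart from genotype. The cause was not tested. The number of genes called in all, 1, was 0 with DESeq2 size factors, a CPM minimum, limma-voom, no robust estimation or the Hox covariate, 2 with upper-quartile factors, library size alone or library size without Rn45s, 3 with no filter, 10 with the Y-linked covariate, 11 with libraries 10 and 11 as a term and 64 with DESeq2. It was 0 to 4 when 1 library was left out (4 without null replicate 10, 0 without any other), and 5 without null replicate 2 and heterozygous replicate 7 together. The last setting and the removal of Rn45s were chosen after the data were seen. Of the pathway genes, DESeq2 called 1. Library size alone shifted the median of all genes to -0.09. No paired analysis was possible because the labels give no litter or other pairing between the groups. The widest of the 9 intervals was that of Lhx1 (SE 0.21), which averaged 511 counts. Trp73 (345 counts, SE 0.17) and Ndnf (462 counts, SE 0.15) had fewer counts and narrower intervals.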
